A study of Mus musculus with 12 samples.

Results

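The genes described here are the 4 early growth response transcription factors, Egr1, Egr2, Egr3 and Egr4, and the 2 NGFI-A binding corepressors, Nab1 and Nab2. They were chosen by symbol, by a rule that uses no measured value but with earlier results of these data known, and are 6 of the 55471 gene IDs in the count table. All 6 passed the filter on low counts, as did 19492 IDs in the whole table. Each was measured in 12 RNA-seq libraries of ventral CA1, the ventral part of hippocampal area CA1, from acute brain slices of wild-type male C57BL/6J mice aged 5 to 7 weeks. Slices of 400 µm had recovered for at least 3 h. Stimulated slices were frozen after a further 30 min, a piece of 1 mm2 at the electrodes was cut from each, and 6 pieces went into every library. A mouse supplied 4 slices, 1 per group.

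The libraries form 4 groups of 3. In the STET group, slices were tetanized strongly (3 trains, each of 100 pulses, at 100 Hz), a protocol used to induce late long-term potentiation. STET_S100 slices had the same tetanization together with stimulation of the basolateral amygdala at 100 Hz, and STET_S200 slices received it together with amygdala stimulation labelled 200 Hz. The labels of STET_S200 also give 100 Hz in brackets, so its rate is stated in conflicting ways. Control slices came from the same strain and preparation and had basal stimulation only. Because the pieces are bulk tissue, fewer cells of a type and less RNA per cell cannot be told apart in any value below.

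Egr proteins are zinc-finger transcription factors that bind GC-rich elements near their target genes. In neurons their genes are immediate early genes: calcium entry and MAP kinase signalling act on factors already present, chiefly serum response factor and CREB, and transcription starts without new protein synthesis. Nab1 and Nab2 bind Egr1, Egr2 and Egr3 through a shared inhibitory domain and repress their activity, in part by recruiting the NuRD chromatin remodelling complex, and Nab genes are themselves known Egr targets. Egr4 lacks that domain.

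Egr1, Egr2 and Egr4 had higher mean levels in each stimulated group than in Control, by 0.31 to 0.55 on the log2 scale, whereas Egr3, Nab1 and Nab2 differed from Control by at most 0.20. None of the 6 passed the test in any of the 7 comparisons. The test was edgeR's quasi-likelihood test at a Benjamini-Hochberg adjusted p of 0.05, adjusted over all 19492 genes, and in the same test 0% of all genes were called in each of the 7 comparisons. Total counts were 36.3 M to 52.8 M per library (M, 1000000). The lowest count of any member was 628 reads, for Egr2 in Control 3, so no member was near the limit of detection. The part of counting error in the spread between libraries was not tested.

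Some libraries stood apart in features other than the members. Summed over 5 dentate granule cell markers, levels were 24.3 CPM (counts per 1000000) in STET_S200 3 and 33.9 CPM in Control 3, against 58.6 to 107 CPM in the other 10 libraries. Choroid plexus markers summed to at most 50.3 CPM in the STET_S200 libraries and ranged from 19.6 to 3039 CPM in the other 9. Fabp4, a fatty acid binding protein gene of adipocytes, lay above 1 CPM in 5 libraries, 4 stimulated and 1 Control. It is 1 of 6 peripheral tissue markers, and the others did not all follow it. Adipoq was higher in these 5 libraries than in the rest. Alb had 7.49 to 8.47 CPM in 4 of them, but 0.0868 CPM in STET 3, and Apoa1 was also lower in STET 3 than in those 4. Umod and Slc34a1 did not follow Fabp4, and Umod was highest in Control 1, at 0.718 CPM. CA1 pyramidal markers were present throughout, with 7 of 7 above 0 in every library and sums of 4937 to 5645 CPM. Egr2 is also a Schwann cell gene. Of other genes of those cells, Pmp2 was at 0 in all 12 libraries, and Prx had 0.961 to 1.17 CPM in STET, 1.16 to 1.36 CPM in STET_S100 and 0.69 to 1.00 CPM in STET_S200, against 0.718 to 1.20 CPM in Control. Microglia markers summed to 157 to 197 CPM in stimulated libraries, against 184 to 205 CPM in Control. For the stimulated groups together 6 of 6 had a negative log2 fold change (median -0.15), where 50% of all genes were positive. Of these, 3 passed an unadjusted p of 0.05 in edgeR (5.47% of all genes) and 0 passed after adjustment. The part of Schwann cells or microglia in the members' values was not tested.

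Set per kilobase of exon, so that genes of different length can be compared, the levels ran from Egr1 at 87.0 ± 17.5 CPM per kb through Egr4 at 69.2 ± 12.5, Egr3 at 45.3 ± 5.27, Nab2 at 14.6 ± 1.30 and Nab1 at 7.70 ± 0.507 to Egr2 at 6.95 ± 1.59 CPM per kb (SD, n = 12 libraries). Each neighbour in that order was higher than the next in 12 of 12 libraries, except that Nab1 was above Egr2 in 9 of 12, so the order of the last pair is not separated by their spread. Egr1 stood at the 98.0th percentile of tested genes with a known length and Egr2 at the 68.6th percentile.

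**Figure D1:**
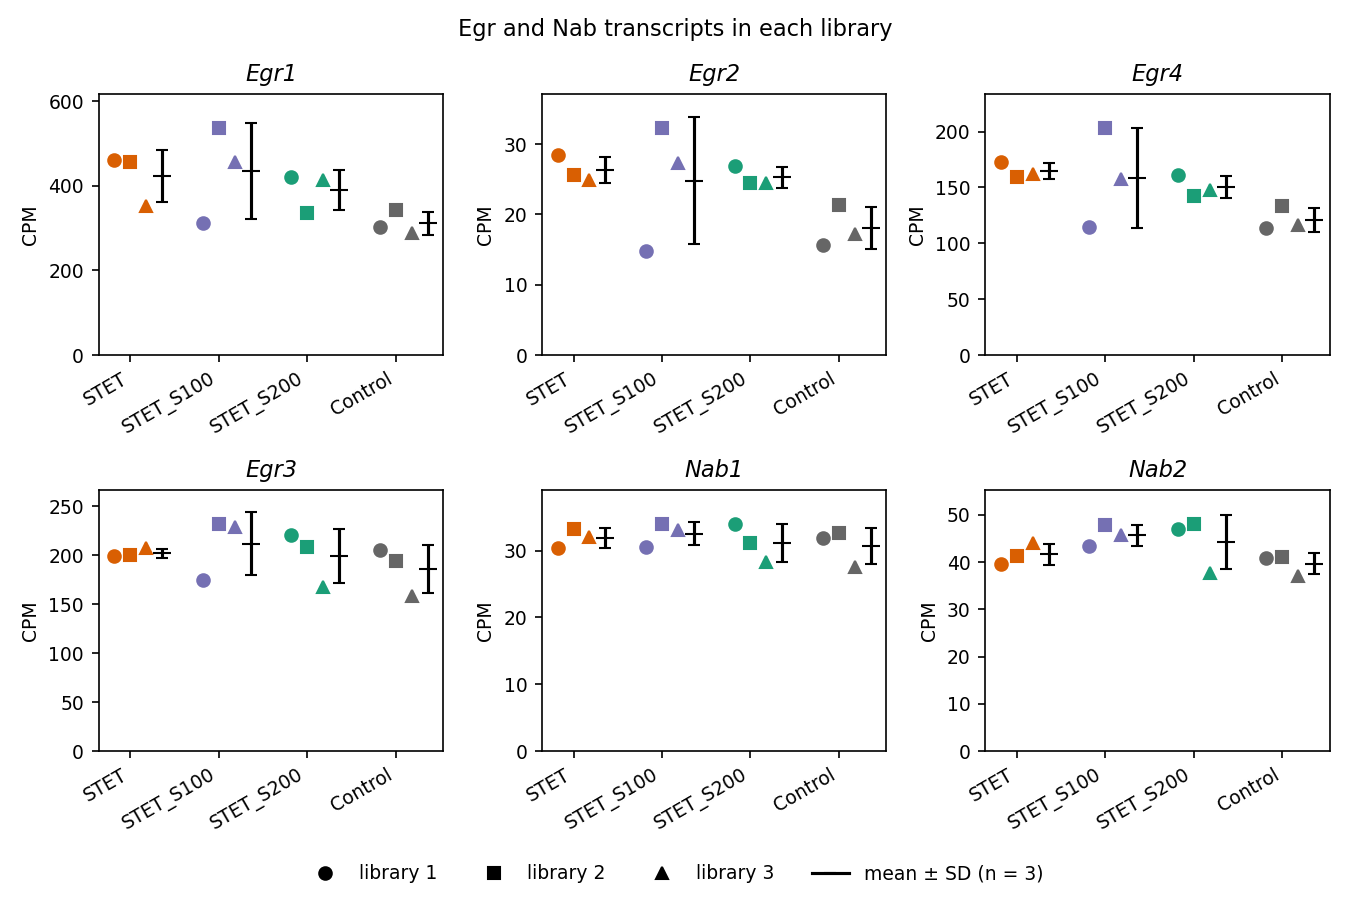
Level of each of the 6 genes in CPM (y axes, linear, starting at 0) in the 3 libraries of STET, STET_S100, STET_S200 and Control (x axes, in that order); circles, squares and triangles are libraries 1, 2 and 3, and bars are the mean ± SD (n = 3). The point of STET_S100 that lies with Control in the panels of Egr1, Egr2 and Egr4 is library 1, and the lowest Egr3 and Nab1 values are Control 3 and STET_S200 3.

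Egr1, also known as Zif268 and the most used marker of neuronal activity in the family, had 461, 455 and 353 CPM in STET 1, 2 and 3, 312, 537 and 456 CPM in STET_S100 1, 2 and 3, and 422, 336 and 415 CPM in STET_S200 1, 2 and 3, against 302, 342 and 289 CPM in Control 1, 2 and 3. The 3 STET libraries lay above all Control libraries, while 1 library each of STET_S100 and STET_S200 overlapped Control. Group means were 423 ± 60.7 CPM in STET, 435 ± 114 CPM in STET_S100 and 391 ± 47.6 CPM in STET_S200, against 311 ± 27.4 CPM in Control (SD, n = 3 each). The log2 fold change over Control was 0.44 ± 0.20 in STET, 0.48 ± 0.20 in STET_S100 and 0.33 ± 0.20 in STET_S200 (SE). The edgeR adjusted p was 1.00 for STET, 0.902 for STET_S100 and 0.852 for STET_S200. Taking the mean of the 3 stimulated groups over Control, Egr1 was 1.34-fold higher, with a 95% interval of 1.02 to 1.75 that is not adjusted for the number of genes, and an edgeR adjusted p of 0.895.

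Egr4, which differs from the rest of the family in lacking the Nab-binding domain, had 173, 159 and 162 CPM in STET, 114, 204 and 157 CPM in STET_S100, and 161, 142 and 148 CPM in STET_S200, against 113, 134 and 116 CPM in Control, in the order of the replicate numbers. All STET and all STET_S200 libraries were above every Control library, and STET_S100 1 was at the Control level. Over Control, the log2 fold change was 0.45 ± 0.18 in STET, 0.39 ± 0.18 in STET_S100 and 0.31 ± 0.18 in STET_S200 (SE), with edgeR adjusted p-values of 1.00, 0.902 and 0.841 in that order. STET libraries were close together, at 165 ± 7.42 CPM, and STET_S100 libraries far apart, at 158 ± 44.6 CPM, against 121 ± 11 CPM in Control (SD, n = 3 each).

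Egr2, known as Krox20 and needed for hindbrain patterning and peripheral myelination, was the scarcest member. It had 28.4, 25.6 and 25.0 CPM in STET, 14.8, 32.4 and 27.3 CPM in STET_S100, and 27.0, 24.4 and 24.4 CPM in STET_S200, against 15.6, 21.4 and 17.2 CPM in Control. As for Egr4, STET and STET_S200 were clear of Control. STET_S100 1 was below all 3 Control libraries, where for Egr4 it lay within the Control range. Its log2 fold change over Control was 0.55 ± 0.25 in STET, 0.46 ± 0.25 in STET_S100 and 0.49 ± 0.26 in STET_S200 (SE). No other member had a larger value in STET or STET_S200. The edgeR adjusted p was 1.00 in STET, 0.902 in STET_S100 and 0.840 in STET_S200.

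Promoter windows were matched in RefSeq (build GRCm38.p6) for 4 of the 6 members, Egr2, Egr4, Nab1 and Nab2, and not for Egr1 and Egr3. The sequences upstream of Egr2 and Egr4 are shown because this pair had the highest Pearson r of the members. Each runs 5′ to 3′ on the gene's strand over the 250 bases before an annotated start. For Egr2 that is 1 of 5 RefSeq starts, the start of the principal GENCODE transcript; longer Egr2 transcripts begin upstream of it, and the window lies in their introns. Egr2 lies on chromosome 10, plus strand, with the window chr10:67537619-67537868, and Egr4 on chromosome 6, minus strand, with the window chr6:85513590-85513839. Capitals mark matches to the CArG box, the serum response factor element of CC, then 6 A or T letters, then GG, and to the CRE core TGACG or its reverse complement CGTCA, the letters to which CREB binds.
Egr2: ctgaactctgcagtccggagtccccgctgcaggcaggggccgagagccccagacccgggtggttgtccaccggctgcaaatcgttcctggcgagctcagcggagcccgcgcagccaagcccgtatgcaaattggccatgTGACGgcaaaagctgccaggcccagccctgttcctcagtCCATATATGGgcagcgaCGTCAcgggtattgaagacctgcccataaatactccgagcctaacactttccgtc
Egr4: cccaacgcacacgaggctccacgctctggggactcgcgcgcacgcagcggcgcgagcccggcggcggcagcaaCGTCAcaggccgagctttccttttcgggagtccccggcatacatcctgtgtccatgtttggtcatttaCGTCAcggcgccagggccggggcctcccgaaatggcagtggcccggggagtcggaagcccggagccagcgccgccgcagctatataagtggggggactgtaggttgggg

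Both windows hold TGACG in 2 places, counting both strands. In Egr2 the matches begin at bases -111 and -55 before the start, and in Egr4 at bases -177 and -109. Among 32851 RefSeq promoter windows of the same length, 17.8% held TGACG at least once and 3.90% in 2 or more places. The Egr2 window also holds a CArG box, at bases -72 to -63, which 1.47% of windows held; the Egr4 window holds none. No match to the full CRE, TGACGTCA (1.55% of windows), to TATAAA (12.4%), or to the Egr elements GCGTGGGCG (0.536%) and GCGGGGGCG (2.57%) was found in either window. Only exact matches were counted, so the tatataag in the Egr4 window, a variant of TATAAA, is not among them. A match is a description of the letters and not evidence of binding, and a missing match does not show that an element is absent.

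Egr3, which in neurons is induced later and lasts longer than Egr1, showed little difference between groups. It had 199, 200.0 and 207 CPM in STET, 174, 232 and 229 CPM in STET_S100, and 221, 209 and 168 CPM in STET_S200, against 206, 194 and 158 CPM in Control. The groups overlapped, and the lowest values were Control 3 and STET_S200 3, the same libraries that were lowest in dentate granule markers. Its log2 fold change over Control was 0.12 ± 0.14 in STET, 0.19 ± 0.14 in STET_S100 and 0.10 ± 0.15 in STET_S200 (SE), with edgeR adjusted p-values of 1.00, 0.922 and 0.944. For the mean of the stimulated groups the 95% interval of the fold was 0.909 to 1.32, so an increase of the size estimated for Egr2 (1.41-fold) lies outside it and one of the size estimated for Egr4 (1.30-fold) does not.

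Nab2, the corepressor whose own gene is induced by Egr proteins, had 39.6, 41.2 and 44.1 CPM in STET, 43.4, 47.9 and 45.7 CPM in STET_S100, and 47.0, 48.2 and 37.8 CPM in STET_S200, against 40.9, 41.0 and 37.1 CPM in Control. All 3 STET_S100 libraries lay above Control, including library 1, and STET_S200 was above Control in libraries 1 and 2. The log2 fold change over Control was 0.07 ± 0.08 in STET, 0.20 ± 0.08 in STET_S100 and 0.16 ± 0.08 in STET_S200 (SE). None passed, with edgeR adjusted p-values of 1.00, 0.902 and 0.828.

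Nab1, the other corepressor, was the steadiest member, with a coefficient of variation of 6.58% over the 12 libraries against 22.8% for Egr2. It had 30.4, 33.2 and 32.1 CPM in STET, 30.6, 34.0 and 33.1 CPM in STET_S100, and 34.0, 31.2 and 28.3 CPM in STET_S200, against 31.9, 32.7 and 27.6 CPM in Control. The groups overlapped throughout. The 95% interval of the fold over Control for the mean of the stimulated groups was 0.95 to 1.13 (edgeR adjusted p = 0.973).

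In the RefSeq window of the Nab2 gene, on the minus strand of chromosome 10, none of the 6 motifs named above was found in the 250 bases. That of Nab1, on the minus strand of chromosome 1, holds the Egr element GCGTGGGCG in 2 places, GCGGGGGCG in 1 and TGACG in 1. These matches lie within the first exon of a Nab1 transcript in GENCODE release 21, so no sequence is printed for it.

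**Figure D2:**
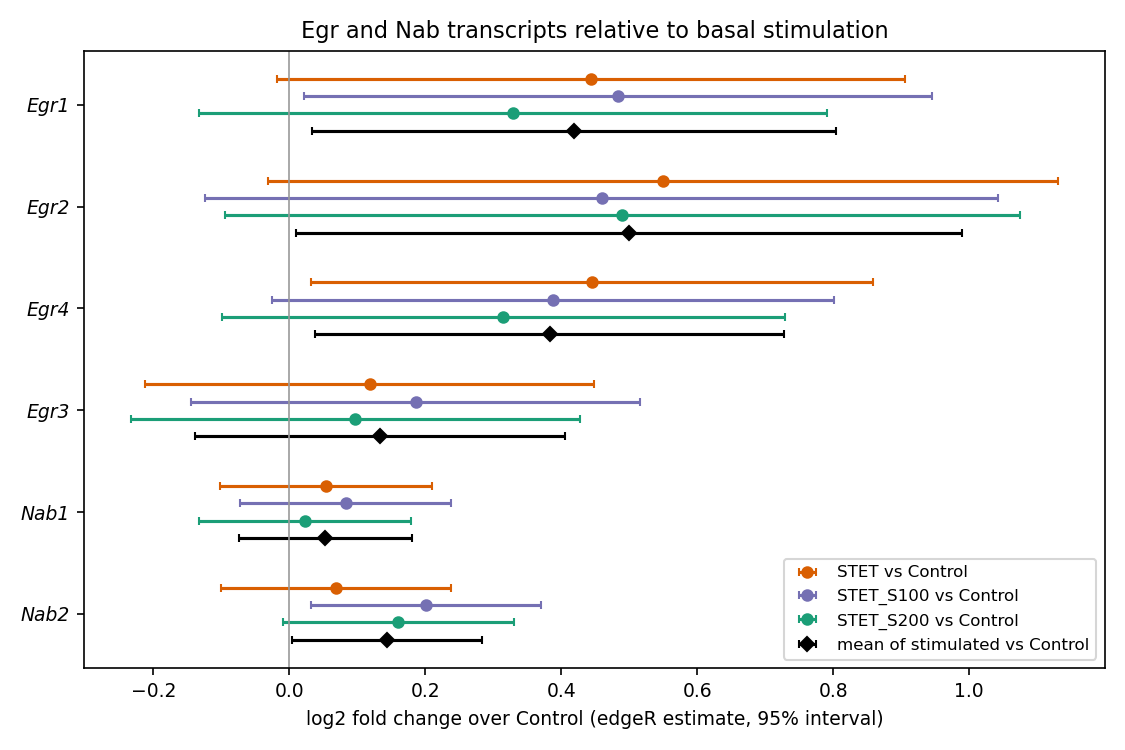
Log2 fold change over Control (x axis; 0 means no difference) of each gene (rows) in STET, STET_S100 and STET_S200 (circles) and for their mean (black diamonds), with 95% intervals from the edgeR fit (bars, not adjusted for the number of genes). Egr1, Egr2 and Egr4 lie at 0.31 to 0.55 in all 3 groups, and Egr3, Nab1 and Nab2 at 0.02 to 0.20.

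Against Control, 6 of 6 members had a positive log2 fold change in STET, in STET_S100 and in STET_S200, where 49.9%, 50.8% and 50.6% of all genes tested were positive. The 3 comparisons share the Control libraries, so they are not separate evidence of direction. The median over the 6 members was 0.28 in STET, 0.29 in STET_S100 and 0.24 in STET_S200, and the median over all genes was 0.00 in each. At an unadjusted p of 0.05, edgeR passed 1 of 6 members in STET (Egr4; 3.5% of all genes), 2 of 6 in STET_S100 (Egr1 and Nab2; 5.16% of all genes) and 0 of 6 in STET_S200 (5.92% of all genes). At that unadjusted level DESeq2 passed 3, 3 and 0 members and limma-voom 3, 3 and 2, and neither called any member after adjustment. The shares of all genes passing the unadjusted level in DESeq2 and limma-voom are not given here. Their counts of members therefore have no background and are not read as an excess.

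Libraries that did not overlap give a view with no model. In STET, 3 of 6 members (Egr1, Egr2 and Egr4) were higher in every library than in every Control library, as were 4.69% of all genes. In STET_S100 this held for 1 of 6, Nab2, beside 5.19% of all genes, and in STET_S200 for 2 of 6, Egr2 and Egr4, beside 5.73% of all genes. Taking STET, STET_S100 and STET_S200 together over Control, edgeR called 0 members and passed 4 of 6 at an unadjusted p of 0.05 (Egr1, Egr2, Egr4 and Nab2; 5.47% of all genes), and 6 of 6 were positive (50% of all genes). No member was above Control in all 9 stimulated libraries, as 0.549% of all genes were.

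STET_S100 1 decided several of these values. In that library Egr1, at 312 CPM, and Egr4, at 114 CPM, lay within the Control range, and Egr2, at 14.8 CPM, below it. Without it, the log2 fold change of STET_S100 over Control was 0.67 ± 0.15 for Egr1, 0.73 ± 0.12 for Egr2, 0.58 ± 0.11 for Egr4 and 0.31 ± 0.13 for Egr3 (SE), with edgeR adjusted p-values of 0.521 to 0.957 over the 6 members. Without STET_S100 2, the highest library for Egr1, Egr2 and Egr4, the log2 fold changes were 0.30, 0.22 and 0.17. The same library did not fall to the Control range for every activity gene: Arc, a synaptic immediate early gene, was at 170 CPM in STET_S100 1, against 80.5 to 116 CPM in Control, and Npas4, a neuronal activity-regulated factor, at 114 CPM, against 54.7 to 75.3 CPM in Control. Fos was at 171 CPM there, against 151 to 168 CPM in Control.

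Adding amygdala stimulation to tetanization gave no detectable difference in any member. Against STET, 0 of 6 were called by edgeR in STET_S100 (0% of all genes; 0 members and 3.16% of all genes at an unadjusted p of 0.05), and DESeq2 and limma-voom also passed 0 members at either level. In STET_S100, the log2 fold change over STET was 0.04 for Egr1 (95% interval -0.42 to 0.50), -0.09 for Egr2 (-0.66 to 0.48) and -0.06 for Egr4 (-0.47 to 0.35). Those intervals still hold differences as large, in at least 1 direction, as the ones estimated between STET and Control. For Egr3 it was 0.07 (-0.26 to 0.40), for Nab1 0.03 (-0.13 to 0.18) and for Nab2 0.13 (-0.04 to 0.30). Tissue markers also differed between STET_S100 and STET, with 51.9% of all genes positive. Of CA3 and CA2 markers, 5 of 5 were positive (median 0.22), 3 passed an unadjusted p of 0.05 in edgeR and 0 were called. Dentate markers were positive in 5 of 5 (median 0.25), oligodendrocyte and astrocyte markers in 0 of 6 each. The part of tissue make-up in the members' values was not tested.

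In STET_S200 against STET, 0 of 6 members were called and 0 passed an unadjusted p of 0.05, as 4.56% of all genes did, by edgeR, and DESeq2 and limma-voom again passed none. The log2 fold change was -0.12 for Egr1 (95% interval -0.58 to 0.34), -0.06 for Egr2 (-0.63 to 0.51), -0.02 for Egr3 (-0.35 to 0.31), -0.13 for Egr4 (-0.54 to 0.28), -0.03 for Nab1 (-0.19 to 0.13) and 0.09 for Nab2 (-0.08 to 0.26). Between the amygdala rates, STET_S200 against STET_S100, it ran from -0.16 for Egr1 (-0.62 to 0.31) to 0.03 for Egr2 (-0.54 to 0.60). There too 0 members were called or passed an unadjusted p of 0.05 by edgeR, DESeq2 or limma-voom, beside 5.2% of all genes at the unadjusted level in edgeR. The corepressors, which vary least, are bounded most tightly: for Nab1 the 3 intervals between stimulated groups stayed within -0.22 and 0.18.

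Over libraries, Egr1, Egr2 and Egr4 were most alike, and Egr3 was closer to the corepressors. Log2 CPM of Egr2 and Egr4 correlated at Pearson r = 0.96 (Spearman rho 0.92), Egr1 and Egr4 at 0.91 (0.87) and Egr1 and Egr2 at 0.88 (0.93), over 12 libraries. For Egr3 it was 0.89 (0.78) with Nab1 and 0.80 (0.85) with Nab2, and for Nab1 with Nab2 0.74 (0.68). The 9 pairs across these sets had r of 0.32 (Egr1 with Nab2) to 0.64 (Egr3 with Egr4). These are descriptions: the points share libraries, depth scaling and slices from the same mice.

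Taking each library as its deviation from its own group mean, which removes the group differences, left r at 0.96 for Egr2 with Egr4 and 0.88 for Egr3 with Nab1, and at 0.00 (Egr1 with Nab2) to 0.61 (Egr2 with Egr3) across the sets. Without the 2 libraries farthest from the median of the first gene, r was 0.96 for Egr2 with Egr4 and 0.85 for Egr1 with Egr4. It was 0.69 for Egr3 with Nab1 and 0.42 for Nab1 with Nab2 without Control 3 and STET_S200 3, so the likeness of Egr3, Nab1 and Nab2 rests in part on those libraries. Across the sets, without Control 1 and STET_S100 1, r was 0.80 for Egr2 with Egr3, 0.64 with Nab1 and 0.61 with Nab2. Without the same libraries it was 0.61 for Egr4 with Nab1 and 0.53 with Nab2. For Egr3 with Egr4 it was 0.67 without Control 3 and STET_S200 3. Without Control 3 and STET_S100 2, r was 0.24 for Egr1 with Egr3, 0.12 with Nab1 and -0.14 with Nab2. For Egr3 with Nab2, r was 0.59 without Control 3 and STET_S200 3. With those same libraries left out, Egr3 was thus about as close to Egr4 (0.67) as to Nab1 (0.69), and less close to Nab2. Pairs with different libraries left out are not ranked by these values.

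**Figure D3:**
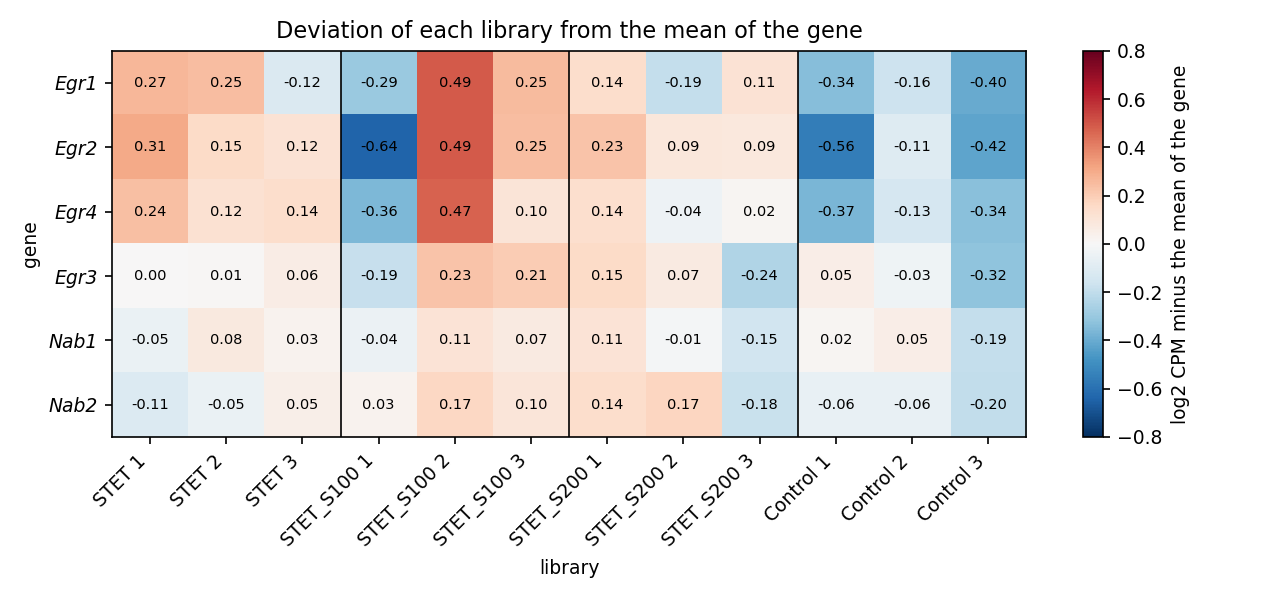
Log2 CPM of each gene minus its own mean over the 12 libraries (colour scale, log2 units), with genes in rows and libraries in columns ordered STET, STET_S100, STET_S200 and Control. Egr1, Egr2 and Egr4 are low together in STET_S100 1 and Control, whereas Egr3, Nab1 and Nab2 are low together in STET_S200 3 and Control 3.

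The genes most like each member were sought among 14878 other genes by Pearson r of log2 CPM over the 12 libraries. For Egr1 they were Ier2 (0.95), Fos (0.95) and Junb (0.94), and for Egr4 Junb (0.96), Ier2 (0.95) and Fos (0.91), all immediate early genes. Those of Egr2 were Plk2 (0.91), an activity-induced kinase, and the transcripts C130071C03Rik (0.91) and Gm15853 (0.90). Nearest to Egr3 were Atxn1l (0.95), Ccnyl1 (0.93) and Btg1 (0.93). Nab1 was most like Pcdh8 (0.97), an activity-regulated protocadherin, Btg1 (0.95) and Dusp4 (0.93), a MAP kinase phosphatase. For Nab2 the list was Grasp (0.96), a scaffold of glutamate receptors, Foxk1 (0.92) and Acvr1 (0.92), a type I BMP receptor. Pcdh8 was low in the same libraries as Nab1, at 104 CPM in STET_S200 3 and 99.1 CPM in Control 3, against 134 to 182 CPM in the other 10 libraries.

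Dentate granule markers correlated positively with Nab1, Nab2 and Egr3, most weakly with Egr3. Pearson r with the dentate marker score, the mean log2 CPM of the 5 markers, was 0.72 for Nab1, 0.52 for Nab2 and 0.45 for Egr3, and 0.04 for Egr1, -0.05 for Egr2 and 0.06 for Egr4, over 12 libraries. Spearman rho was 0.56 for Nab1, 0.46 for Nab2 and 0.26 for Egr3. STET_S100 3, with the next lowest score (2.03) after STET_S200 3 and Control 3, had 229 CPM of Egr3, near its highest value of 232 CPM. With that score as a covariate, a setting added after the data were seen, the log2 fold change of the mean of the stimulated groups over Control was 0.42 for Egr1 and 0.15 ± 0.05 for Nab2 (SE). The same setting changed the sign of STET_S200 over STET for Egr3, from -0.02 to 0.0096, and for Nab1, from -0.03 to 0.00095. Whether dentate tissue in the dissected pieces contributes to the levels of Egr3, Nab1 and Nab2 was not tested.

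**Figure D4:**
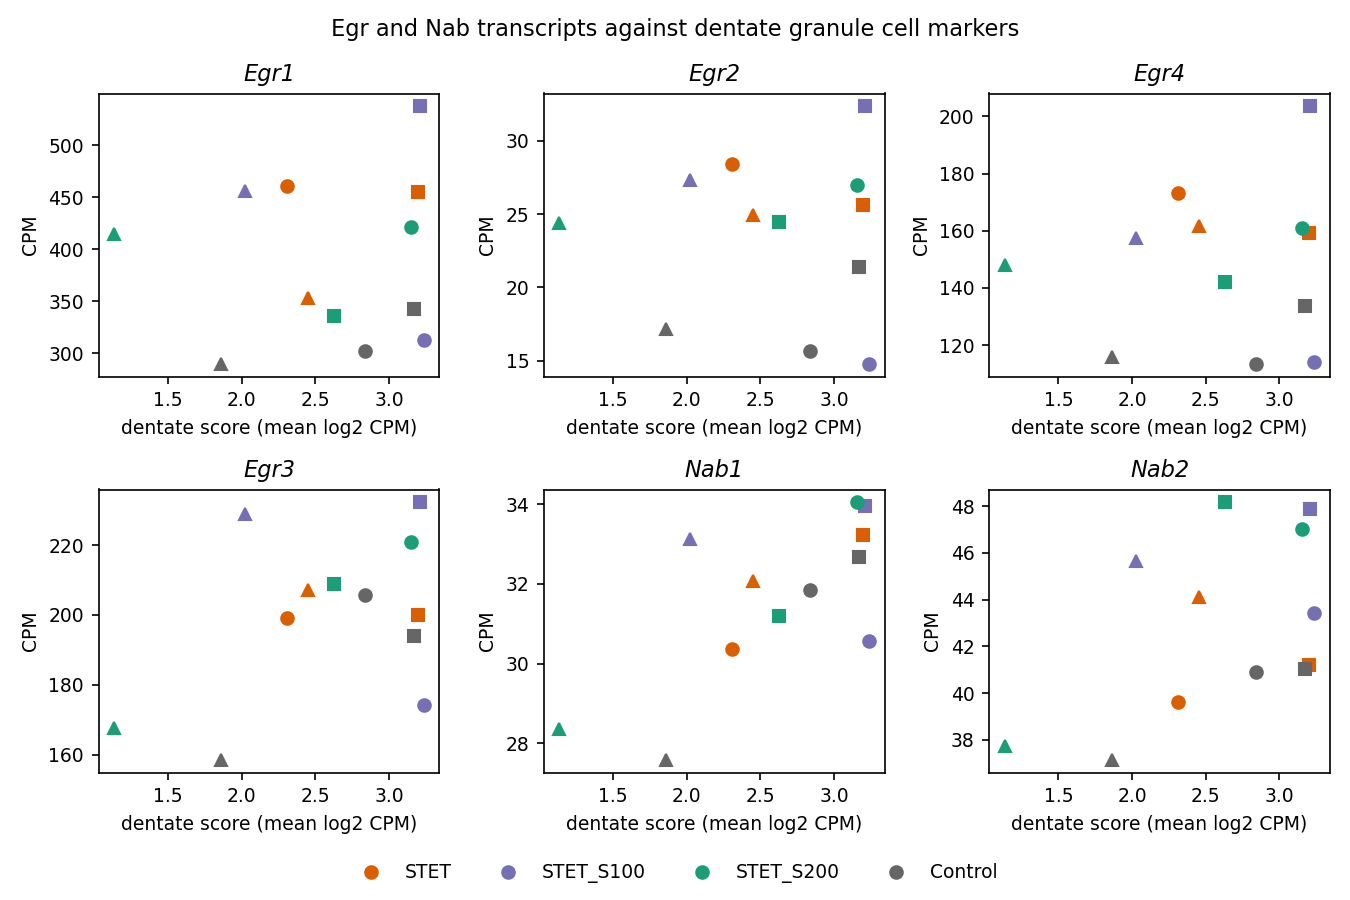
Level of each gene in CPM (y axes, linear, not starting at 0) against the dentate granule marker score (x axes, mean log2 CPM of 5 markers); each point is 1 library, coloured by group, with circles, squares and triangles for libraries 1, 2 and 3. The libraries with the lowest scores, STET_S200 3 at 1.14 and Control 3 at 1.86, are lowest in Egr3, Nab1 and Nab2, while r of log2 CPM with the score is between -0.05 and 0.06 for Egr1, Egr2 and Egr4.

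The libraries were also split by Fabp4 alone, with no test, since the side above 1 CPM has a single Control library, Control 3. That side includes STET 3, where Alb was low. In the 7 libraries at or below 1 CPM, Egr1 had 422 to 537 CPM in 5 stimulated libraries, against 302 and 342 CPM in 2 Control libraries, and Egr2 had 25.6 to 32.4 CPM against 15.6 and 21.4 CPM. In the 5 libraries above 1 CPM, Egr1 had 312 to 415 CPM in 4 stimulated libraries, against 289 CPM in 1 Control library. The stimulated minus Control differences in mean log2 CPM were 0.53 and 0.28 for Egr1, 0.62 and 0.33 for Egr2, 0.47 and 0.28 for Egr4, 0.11 and 0.25 for Egr3, 0.03 and 0.15 for Nab1, and 0.11 and 0.22 for Nab2, the first value of each pair being that of the libraries at or below 1 CPM.

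Summed per kilobase, the 4 Egr genes exceeded the 2 Nab genes 11.4-, 10.3- and 9.13-fold in STET 1, 2 and 3, 7.5-, 11.3- and 9.95-fold in STET_S100, and 9.34-, 8.16- and 10.5-fold in STET_S200, against 7.91-, 8.61- and 8.24-fold in Control. The ratio was above all Control libraries in STET, and in 2 of 3 libraries of STET_S100 and of STET_S200. The Egr sum includes Egr4, which lacks the Nab-binding domain, so the ratio does not set Nab against its binding partners alone. It compares transcripts and says nothing of protein amounts.

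The surrounding pathway was read from lists that, like the members, were drawn up with earlier results of these data known. Among 13 subunits of NuRD, the complex that Nab proteins recruit, 0 passed edgeR's adjusted test for the stimulated groups together over Control, and 1 passed an unadjusted p of 0.05, which 5.47% of all genes passed. The list's median log2 fold change was 0.02, with 9 of 13 positive, beside 0.00 and 50% positive over all genes. Mta3 was at 66.3 ± 2.92 CPM in stimulated libraries and 70.6 ± 2.13 CPM in Control (SD, n = 9 and n = 3), a log2 fold change of -0.09, and Mta2 (0.06), Mta1 (-0.05) and Gatad2a (0.05) were the next by p.

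Of 24 measured regulators upstream of Egr transcription, such as serum response factor, its Elk partners, CREB and the MAP kinases, 0 passed the adjusted test and 2 an unadjusted p of 0.05 (5.47% of all genes), with 7 positive (50% of all genes) and a median of -0.02. Crtc1, a CREB coactivator, was at 192 ± 4.32 CPM in stimulated libraries and 204 ± 13.2 CPM in Control, a log2 fold change of -0.09. Mef2a, an activity-dependent factor, was at 0.06, and the kinases Rps6ka2 and Mapk3 at -0.11 each. Srf itself had 64.9 ± 2.75 CPM in stimulated libraries and 63.5 ± 1.66 CPM in Control (SD, n = 9 and n = 3).

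Among 15 genes reported as Egr targets, 0 passed the adjusted test and 3 an unadjusted p of 0.05 (5.47% of all genes), with 9 positive (50% of all genes) and a median of 0.01. Arc stood out in size, at 252 ± 71.3 CPM in stimulated libraries and 96.7 ± 17.6 CPM in Control, a log2 fold change of 1.38 ± 0.29 (SE; edgeR adjusted p = 0.845). Every stimulated library lay above every Control library for Arc, which is also in the list of immediate early genes and is driven by other factors as well. The growth factor gene Tgfb1 was at 8.61 ± 0.793 CPM in stimulated libraries and 7.30 ± 0.693 CPM in Control, a log2 fold change of 0.24, followed by the death receptor gene Tnfrsf10b at 0.33 and the potassium chloride cotransporter gene Slc12a5 at -0.05.

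The other immediate early genes set the members' values in scale. Of 32 measured, 23 were positive (50% of all genes) with a median of 0.14, 13 passed an unadjusted p of 0.05 (5.47% of all genes), 0 passed the adjusted test, 9 were higher in all stimulated libraries than in all Control libraries (0.549% of all genes) and 1, Nr4a2, was lower in all (0.441% of all genes). Npas4 had 193 ± 67.7 CPM in stimulated libraries and 63.8 ± 10.5 CPM in Control, a log2 fold change of 1.59 ± 0.36 (SE; edgeR adjusted p = 0.845). Fos had 254 ± 47.9 CPM in stimulated libraries and 157 ± 9.51 CPM in Control (SD, n = 9 and n = 3), a log2 fold change of 0.69 ± 0.20 (SE; edgeR adjusted p = 0.845). By the same measure Gadd45g was at 0.60 and Btg2 at 1.06. The largest value among the members, 0.50 ± 0.21 for Egr2, lay below these 4 values. Those 4 genes were named for a small p or for scale and do not stand for the list. The median of the list, 0.14, lay below the value of Egr2.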

How the data were processed

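Counts per Ensembl gene ID for 12 libraries were deposited as whole numbers with no scaling, made by the authors from directional poly(A) libraries with 150 bp paired-end reads, per the labels. Tools named per the submitters' processing notes were HTSeq 0.11.2 for counting, STAR 2.7.1a, Trimmomatic 0.39, limma and R 4.0.2. No source used here gives the build, annotation or strand setting, so reads of an antisense or overlapping gene may be included. Symbols were found for 55144 of 55471 IDs and exon lengths (GENCODE release 21) for 55230.

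Genes passing filterByExpr (minimum count 10, total 15), 19492 in all, were tested in R 4.3.3 with edgeR 4.0.16 (TMM scaling, robust quasi-likelihood) across the 12 libraries, with Benjamini-Hochberg adjustment at 0.05. The biological coefficient of variation of the fit as a whole was 8.25%, which does not describe the Egr genes. Within groups their coefficient of variation reached 36.5% (Egr2 in STET_S100). The robust fit gave Egr1 to Egr4 only 0.253 to 0.591 prior degrees of freedom, against a median of 8.90. Their spread was therefore estimated almost wholly from their own libraries. DESeq2 1.42.0, limma-voom 3.58.1, other scalings and filters, covariates and leaving out each library were alternatives, and the fit was tested on simulated data. CPM is counts per 1000000 of the TMM-scaled library size. Correlations use log2 CPM with a prior count of 2. Libraries of a group are labelled as separate samples, but groups share mice, and whether replicates of a group share mice is not stated, so p-values measure the spread between these libraries.

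All 6 members are named whatever their p; from each list the 4 genes with the smallest p for the mean of the stimulated groups are named, with Arc, Npas4 and Fos for scale and Srf and Nr4a2 chosen after their values were seen; for likeness the 3 genes with the highest r. Members and lists were chosen with earlier results of these data known. Older symbols without an ID (Mkl1, Mkl2, Cyr61) had no value. A result that needs a withheld item is not reported here.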

Additional observations from a re-analysis of the deposited data

How the results depend on the processing

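Under 25 other settings, 1044 values of the members gave 0 calls and 42 changes of sign, of which 9 were in comparisons with Control and 0 of those for Egr1, Egr2 or Egr4. The cause of these changes was not tested. In the libraries with Fabp4 at or below 1 CPM alone, STET over Control was -0.00016 for Egr3, -0.018 for Nab1 and -0.016 for Nab2, STET_S100 over STET was 0.14 for Egr2 and 0.11 for Egr4, STET_S200 over STET was 0.14 for Egr3 and 0.094 for Nab1, and STET_S200 over STET_S100 was -0.15 for Egr2, 0.021 for Nab1 and 0.0075 for Nab2 (log2). With a term for Fabp4, STET_S200 over STET was 0.0075 for Egr1, 0.049 for Egr2, 0.045 for Egr3 and 0.010 for Nab1, and STET_S200 over STET_S100 was 0.018 for Egr4. With the dentate score, STET_S200 over STET was 0.0096 for Egr3 and 0.00095 for Nab1, and STET_S200 over STET_S100 was 0.0064 for Nab2. With a choroid plexus score, STET_S200 over Control was -0.00075 for Egr3 and STET_S200 over STET_S100 was -0.0022 for Egr2. Leaving out each library in turn, Nab1 ranged from -0.017 to 0.099 in STET over Control, from -0.049 to 0.086 in STET_S200 over Control and from -0.018 to 0.098 for the mean of the stimulated groups, with each lowest value without Control 3. Egr3 ranged from -0.0078 to 0.21 in STET_S200 over Control, and was 0.030 for the mean of the stimulated groups without Control 3. STET_S100 over STET ranged from -0.14 to 0.23 for Egr1, -0.33 to 0.18 for Egr2, -0.0043 to 0.19 for Egr3, -0.28 to 0.13 for Egr4 and -0.0048 to 0.074 for Nab1. STET_S200 over STET ranged from -0.10 to 0.089 for Egr3 and -0.097 to 0.033 for Nab1. STET_S200 over STET_S100 ranged from -0.35 to 0.023 for Egr1, -0.24 to 0.26 for Egr2, -0.21 to 0.021 for Egr3, -0.26 to 0.15 for Egr4, -0.13 to 0.0036 for Nab1 and -0.10 to 0.061 for Nab2. Over all genes, where edgeR called 0 in each comparison, the order here being STET, STET_S100 and STET_S200 over Control, STET_S100 and STET_S200 over STET, STET_S200 over STET_S100 and the mean of the stimulated groups, no filter on low counts gave 16, 42, 69, 22, 34, 98 and 52 calls, DESeq2 1, 3, 4, 1, 16, 5 and 7, and limma-voom 0 in each. The compared groups alone gave 1 call for STET_S100 over Control and were not fitted for the mean of the stimulated groups. Libraries with Fabp4 at or below 1 CPM alone gave 4 for the mean of the stimulated groups. A term for Fabp4 gave 2 for STET and 1 for STET_S200 over Control, 1 each for STET_S100 and STET_S200 over STET, and 4 for the mean of the stimulated groups, and the dentate score 1 for STET_S200 over Control. Leaving out each library gave 0 to 1 for STET_S100 and 0 to 2 for STET_S200 over Control, 0 to 1 for STET_S100 over STET, 0 to 8 for STET_S200 over STET_S100 and 0 to 1 for the mean. With the replicate number as a block, 0 members and 0 genes were called in each comparison, and Egr1 was at 0.42 for the mean of the stimulated groups. The labels do not say that equal numbers share mice, and 8 of 18 pairs of equal number had deviations correlated above 0.1 (-0.36 to 0.48, against -0.60 to 0.50 for 36 other pairs), with 7 of 12 libraries best correlated with their own number, so the numbers were not treated as pairs. Depth was lowest for Egr2, at 628 to 1432 reads per library. The smallest adjusted p of any member under any setting was 0.0959, in STET_S100 over Control.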
